A study of Mus musculus with 4 samples.

Results

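Cd209a-positive conventional dendritic cells were taken from single-cell RNA sequencing of mouse popliteal lymphatic vessels and the superficial saphenous vein. These cells were 395 of the 8879 cells in the WT and TNF-Tg libraries, 134 of 5488 in WT and 261 of 3391 in TNF-Tg, out of 10837 cells in the whole series. Members were chosen by their UMI counts. A cell was a member when its *Dcn* count, a fibroblast transcript, was under 20 unique molecular identifiers (UMIs, counted RNA molecules) per 10000, and *Flt3*, *Cd209a* and *Klrd1* together reached 3 UMIs. A member also had no UMI of the cDC1 genes *Xcr1* and *Clec9a*, fewer than 10 of the complement genes *C1qa*, *C1qb* and *C1qc*, and fewer than 5 of *Ear2*, *Retnla* and *Cd226*.

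The study compared vessels of mice with and without inflammatory-erosive arthritis. WT mice were C57BL6 males of 9 months. TNF-Tg mice were males of the same age and genetic background that carry a human *TNF* transgene and develop arthritis. Each library pooled vessels of 3 mice, and live DAPI- events of high forward and side scatter were sorted before 10x 3′ library preparation. Both further libraries, tdT1 and tdT2, came from *Cspg4*-Cre;Ai9-tdTomato mice without the *TNF* transgene and were sorted for tdTomato, which *Cspg4*-Cre switches on in pericytes and muscle cells of vessels. They held 21 gated cells of 1504 and 15 of 454, which are given beside the main values. With 1 library per genotype no difference has a replicate check, no p-value is given, and genotype and library cannot be told apart. Intervals throughout are 95% intervals for counting error only.

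Conventional dendritic cells sample tissue antigen, load it on MHC class II molecules and carry it through lymphatic vessels to the draining node, where they prime T cells. The type 2 subset, cDC2, presents mainly to CD4+ T cells. It depends on the cytokine receptor Flt3 and the transcription factor Irf4 and commonly carries lectins such as Clec10a, Mgl2 and, in its monocyte-related forms, Cd209a. *Klrd1* (CD94) is chiefly a receptor of natural killer (NK) cells and some T cells, so a gate that accepts it alone can also take in lymphocytes.

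The gated cells were deeply sampled. They held 1819587 UMIs in WT and 3188894 in TNF-Tg, with medians of 14022.5 and 11983 UMIs and 3022.5 and 2699 genes per cell. A count of 3 UMIs, taken as the floor, equalled 1.65 CPM (UMIs of a gene scaled to a library total of 1000000) in WT and 0.941 CPM in TNF-Tg. Median mitochondrial shares were 1.31% and 1.16%, and a doublet caller marked 0 WT cells and 1 TNF-Tg cell. No WT or TNF-Tg gated cell was over 10% mitochondrial, while 2 tdT1 gated cells were. No gated barcode was shared between libraries.

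Gated cells were more frequent in the TNF-Tg library. Their share was 2.44% in WT (exact binomial interval 2.05 to 2.89) and 7.70% in TNF-Tg (6.82 to 8.65), a 3.15-fold ratio or 1.66 on the log2 scale (1.35 to 1.97). Of cells with low *Dcn* they were 4.25% in WT and 11.7% in TNF-Tg, a log2 ratio of 1.46 (1.16 to 1.78). The gated share was 1.40% in tdT1 and 3.30% in tdT2.

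The order of the genotypes in this share appeared late in the rule. Of 3155 WT and 2228 TNF-Tg cells with low *Dcn*, 985 and 445 had the 3 UMIs of *Flt3*, *Cd209a* and *Klrd1*, and 913 and 372 of these lacked *Xcr1* and *Clec9a*. The complement limit then left 266 WT and 262 TNF-Tg cells, and the *Ear2*, *Retnla* and *Cd226* limit left 134 and 261. Without the complement limit the log2 ratio of the share was 0.35 (408 and 322 cells), and without the *Ear2* limit it was 0.67 (266 and 262 cells). Both limits removed more WT than TNF-Tg cells. The low-*Dcn* cells outside the gate were grouped for comparison into C1q macrophages with at least 10 complement UMIs (1804 in WT and 456 in TNF-Tg), cDC1 with at least 3 UMIs of *Xcr1* and *Clec9a* (66 and 28), *Ly6c2* monocytes with at least 5 UMIs of *Ly6c2*, *Chil3* and *Plac8* (94 and 780), cells with at least 5 UMIs of *Ear2*, *Retnla* and *Cd226* and fewer than 10 of C1q (281 and 107, called *Ear2* and *Retnla* cells) and others, and cells with more *Dcn* were called stromal (2333 and 1163).

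**Figure D1:**
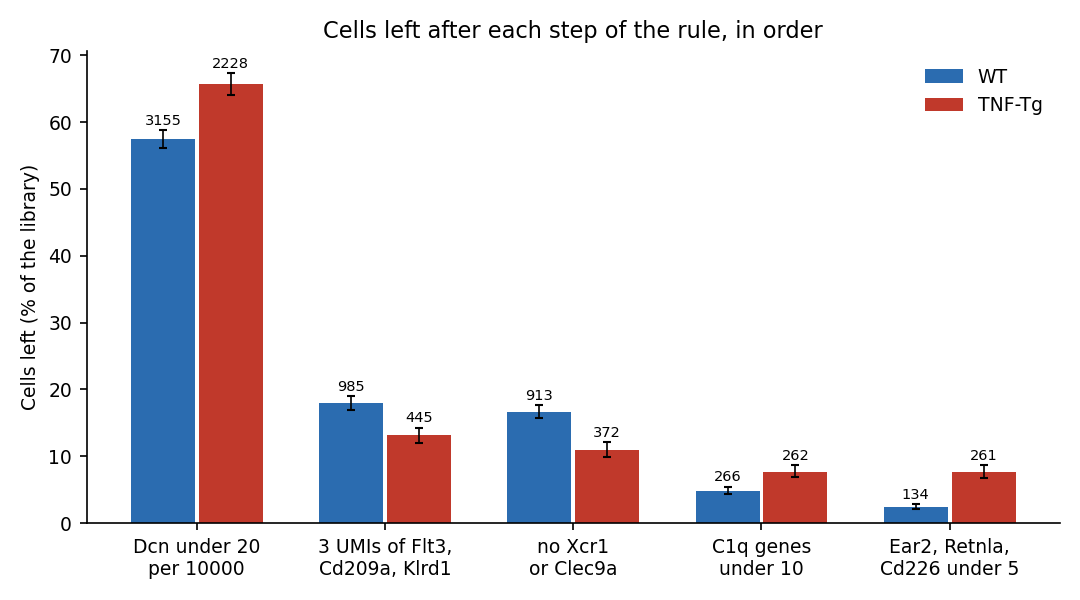
Share of each library left after each condition of the rule, applied from left to right; bars are percent of all cells of the library, error bars 95% exact binomial intervals, numbers above are cells (WT blue, TNF-Tg red). The WT share lies above the TNF-Tg share after the conditions on *Flt3*, *Cd209a* and *Klrd1* and on *Xcr1* and *Clec9a*, and below it once the C1q limit is applied.

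The genes of the rule are given as a description. *Cd209a*, a C-type lectin related to human DC-SIGN, was at 1066 CPM in WT and 671 in TNF-Tg, with a UMI in 107 of 134 and 197 of 261 cells. *Flt3* was at 121 and 88.4 CPM, in 83 and 142 cells. *Klrd1* was at 491 and 640 CPM and was the most widespread of the gate genes, in 121 and 222 cells. Cells with exactly 3 UMIs of these genes numbered 8 in WT and 31 in TNF-Tg, with *H2-Aa* at 5516 and 1840 CPM. The 7 and 29 cells with exactly 2 UMIs that met every other condition had *H2-Aa* at 7282 and 1750 CPM.

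Not all gated cells were dendritic cells by their markers. A list of 16 NK and T cell genes had at least 20 UMIs in 25 WT cells and 42 TNF-Tg cells. All 25 WT cells had fewer than 10 UMIs of the class II genes *H2-Aa*, *H2-Ab1*, *H2-Eb1* and *Cd74* together, and 24 had no *Cd209a*. Of the 42 TNF-Tg cells, 35 had fewer than 10 class II UMIs and 36 had no *Cd209a*. The WT cells held the cytotoxic granule genes *Gzma* and *Nkg7* at 5630 and 1601 CPM and the NK receptor *Ncr1* at 480 CPM, against 26.3 CPM of *H2-Aa*. In the TNF-Tg cells *Gzma* was at 6114 CPM, *Ncr1* at 499 CPM and *H2-Aa* at 2714 CPM. The 9 WT and 11 TNF-Tg cells with at least 3 but fewer than 20 UMIs of the list were unlike these. They had *H2-Aa* at 8879 and 4515 CPM and *Cd209a* at 934 and 355 CPM, while *Gzma*, *Nkg7* and *Ncr1* were at 0 in both. With them, cells with 3 or more UMIs of the list were 34 of 134 in WT (25.4%, 18.3 to 33.6) and 53 of 261 in TNF-Tg (20.3%, 15.6 to 25.7).

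Most of the other gated cells carried class II together with *Cd209a*. Of 100 WT and 208 TNF-Tg cells under 3 NK and T cell UMIs, 98 and 185 had a *Cd209a* UMI, and 96 and 178 had at least 100 class II UMIs. Class II UMIs per cell ran from 19 through a median of 942.5 to 2232 in WT and from 1 through 432.5 to 1476 in TNF-Tg. In TNF-Tg 6 of these cells had fewer than 10 class II UMIs, and in WT 0 did. *Cd209a* is a gate gene, so its presence was largely fixed by the rule and is given as a description. Class II, which the rule did not use, was at 100 or more UMIs in most of these cells, and was under 10 UMIs in 25 WT and 35 TNF-Tg cells that had at least 20 NK and T cell UMIs, where the dendritic cell label did not hold. Results are given below for all gated cells and, where stated, for the cells under 3 NK and T cell UMIs, here called the NK/T-low cells. That second set was chosen with earlier results of these data known and is defined by the 16 NK and T cell genes alone and not by class II, and it leaves out the 9 and 11 cells just described. It held 1389207 UMIs in WT and 2762659 in TNF-Tg, and 12 cells in each tdT library.

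**Figure D2:**
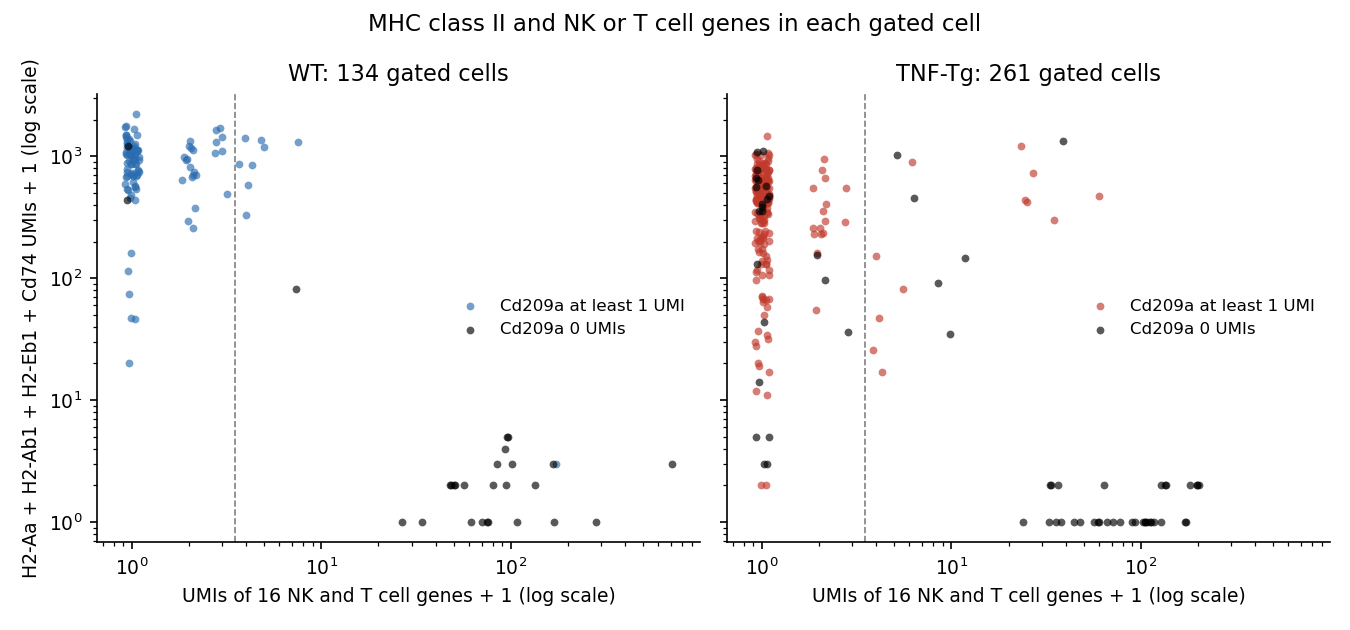
Each point is 1 gated cell: summed UMIs of 16 NK and T cell genes (x axis, plus 1, log scale, spread slightly to show overlapping points) against summed UMIs of *H2-Aa*, *H2-Ab1*, *H2-Eb1* and *Cd74* (y axis, plus 1, log scale), WT left and TNF-Tg right; black points have no *Cd209a* UMI and the dashed line marks 3 NK and T cell UMIs. Most cells sit at the upper left, and a separate group with NK and T cell genes and almost no class II sits at the lower right of both panels.

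Markers of the other cell types the sort could hold were measured in all gated cells. The NK and T cell list summed to 1696 CPM in WT and 1139 in TNF-Tg, led by *Gzma* at 825 and 596 CPM. The macrophage list summed to 803 and 442 CPM, led by *Mrc1* (194 CPM) in WT and *Cd68* (218 CPM) in TNF-Tg, with *Vsig4* at 0 in both. The monocyte list summed to 1046 and 1625 CPM, led by *Ms4a4c* (411 CPM) and *Plac8* (724 CPM), with *Chil3* and *Treml4* at 0 in WT. The plasmacytoid dendritic cell list summed to 191 and 414 CPM, led by *Tcf4*, and 1 WT and 9 TNF-Tg cells held 3 or more UMIs of *Siglech* and *Ccr9*. The neutrophil list summed to 27.5 and 262 CPM, with 20 or more UMIs in 2 TNF-Tg cells and 0 WT cells. The list for mature migratory dendritic cells summed to 175 and 355 CPM and reached 20 UMIs in 2 WT and 9 TNF-Tg cells. The defining Langerhans cell gene *Cd207* was at 0 in both libraries, and endothelial and erythroid lists summed to at most 14.1 CPM. The cDC1 list summed to 487 and 447 CPM, B cell genes to 121 and 173 CPM, mast cell genes to 145 and 68.4 CPM, and stromal genes to 254 and 289 CPM, led by *Gsn*. In tdT2, 2 of 15 gated cells held 1 UMI each of the tdTomato transcript.

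Which genes set the gated cells apart was described against the other cells of the same library with low *Dcn*, 3021 in WT and 1967 in TNF-Tg. Because the rule chose the cells, this is a description with no test. Of 6823 genes with at least 50 UMIs, 85 (1.25%) were at least 4-fold higher in the gated cells of both libraries. Among the 85 were 5 of 8 measured genes of the mature migratory dendritic cell list, *Fscn1*, *Il4i1*, *Ccr7*, *Serpinb6b* and *Cacnb3*. In WT 2 cells held 53 of 53 *Fscn1* and 44 of 53 *Ccr7* UMIs. In TNF-Tg 9 cells held 263 of 264 and 141 of 151. In the NK/T-low cells 0 of 5 measured genes of that list passed, and that set leaves out 1 WT cell with 43 *Ccr7* UMIs. Lymphocyte genes were also among the 85. *Gzma*, a granule protease, was 136-fold higher in WT and 73.3-fold in TNF-Tg, *Ccl5* 69.9-fold and 21.4-fold, *Nkg7* 39.1-fold and 16.2-fold, *Cd7* 35.3-fold and 14.8-fold, and *Ms4a4b* 20.5-fold and 5.58-fold. *Cd7*, an immunoglobulin superfamily receptor best known from lymphocytes, was 28.0-fold and 14.5-fold higher in the NK/T-low cells. *Gzma* and *Nkg7* belong to the list that defines that set and are not compared there.

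In the NK/T-low cells 38 of 6140 genes (0.619%) were at least 4-fold higher in both libraries. The genes with the largest smaller fold of both libraries were low in level. In WT *Cyp7b1* was at 2.88 CPM and *Spint1* at 3.60 CPM, near the floor of 2.16 CPM. *Gm16553* was 26.0-fold and 26.8-fold higher, *Ctnnd2*, a catenin, 20.8-fold and 25.7-fold, *Cyp7b1*, an oxysterol hydroxylase, 15.9-fold and 22.5-fold, and *Spint1*, a protease inhibitor, 23.9-fold and 15.3-fold, all at under 50 CPM in both libraries. *Cd7* came next, followed by *Ngfr*, the low-affinity neurotrophin receptor, at 34.1-fold and 13.6-fold, and *St8sia1*, a sialyltransferase, at 26.1-fold and 12.8-fold. Among the 38 were 3 class II peptide-loading genes. *H2-Oa*, a chain of the H2-O molecule that restrains peptide loading, was at 155 CPM in WT and 65.2 in TNF-Tg, 23.8-fold and 8.73-fold above the other cells. *H2-Ob*, its partner chain, was 7.10-fold and 4.76-fold higher, and *H2-DMb2*, a chain of the loading catalyst H2-DM, 6.08-fold and 9.62-fold. The classical chains were less distinct from the rest in WT than in TNF-Tg, with *H2-Eb1* 2.95-fold and 5.96-fold higher, *H2-Ab1* 2.77-fold and 5.63-fold, and *Cd74*, the invariant chain, 2.71-fold and 5.58-fold. Of 17 measured genes of class II presentation 3 were at least 4-fold higher in both libraries (against 0.619% of all genes), with a median of 2.61 for the smaller of the 2 folds.

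Several transcription factors and receptors were also higher in the same cells than in the other low-*Dcn* cells. *Bcl11a*, a zinc-finger factor of dendritic cell and lymphoid development, was at 129 CPM in WT and 100.3 in TNF-Tg, 12.1-fold and 6.43-fold above the other cells. *Lmo1*, a LIM-domain co-regulator, was 6.06-fold and 5.03-fold higher, and *Fcor* 9.65-fold and 6.57-fold. The kinase gene *Ckb*, for brain-type creatine kinase, was at 513 and 744 CPM, 4.11-fold and 4.48-fold higher. *Klrb1b* and *Klrk1*, NK-type lectin receptors, were 14.2-fold and 10.04-fold, and 4.88-fold and 5.72-fold higher. *Dpp4*, a surface peptidase of cDC subsets, was 5.54-fold and 4.70-fold higher, and the SLAM receptor *Slamf7* 7.85-fold and 5.60-fold.

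The list of cDC2 genes was less distinct than class II. Of 22 measured genes only *Dpp4* passed 4-fold in both libraries (0.619% of all genes did), and the median smaller fold was 0.872. Of 4 measured genes of the plasmacytoid dendritic cell list 2 passed 4-fold in both libraries (against 0.619% of all genes), with a median of 2.49. They were *Spib*, a transcription factor of plasmacytoid and B cells, at 4.32 and 23.5 CPM, 11.95-fold and 8.22-fold higher, and *Smim5*, at 55.4 and 56.8 CPM, 4.73-fold and 4.54-fold higher. The conventional dendritic cell name is used here for the rule and is not a result of this comparison. The integrin *Itgax* (CD11c) was 3.1-fold and 3.28-fold higher, the factor *Zbtb46* 2.30-fold and 5.22-fold, and *Irf4* 1.89-fold and 3.16-fold. The lectin *Mgl2* was 1.59-fold and 1.54-fold higher and *Clec10a* was 0.815 and 2.03 times the level of the other cells, among them C1q-positive macrophages. Macrophage genes were far lower, but the C1q limit of the rule left macrophages out of the gate and in the comparison cells. C1q macrophages were 1804 of the 3021 other cells in WT and 456 of the 1967 in TNF-Tg. The low macrophage values were thus largely set by the rule and are given as a description. *Apoe*, a lipid carrier, was 0.0118 and 0.00760 times the level of the other cells, and the CSF-1 receptor gene *Csf1r* 0.0458 and 0.251 times. Of 8 measured macrophage markers 0 passed 4-fold (against 0.619% of all genes), and their median smaller fold was 0.0932.

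TNF-Tg and WT gated cells were compared gene by gene on CPM, leaving out the 12 genes of the rule. Of 6823 genes 284 (4.16%) were at least 2-fold higher in TNF-Tg and 365 (5.35%) at least 2-fold lower, and the median log2 ratio was −0.00. In the NK/T-low cells 321 of 6140 genes (5.23%) were higher and 319 (5.2%) lower, with a median of 0.03. Both sets shared 221 higher genes, 77.8% of those from all gated cells and 68.8% of those from the NK/T-low cells, and 235 lower genes, 64.4% and 73.7%. Genes that were in only 1 of the sets included *Ccl4*, *Ccl5* and *S100a8*, described below.

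**Figure D3:**
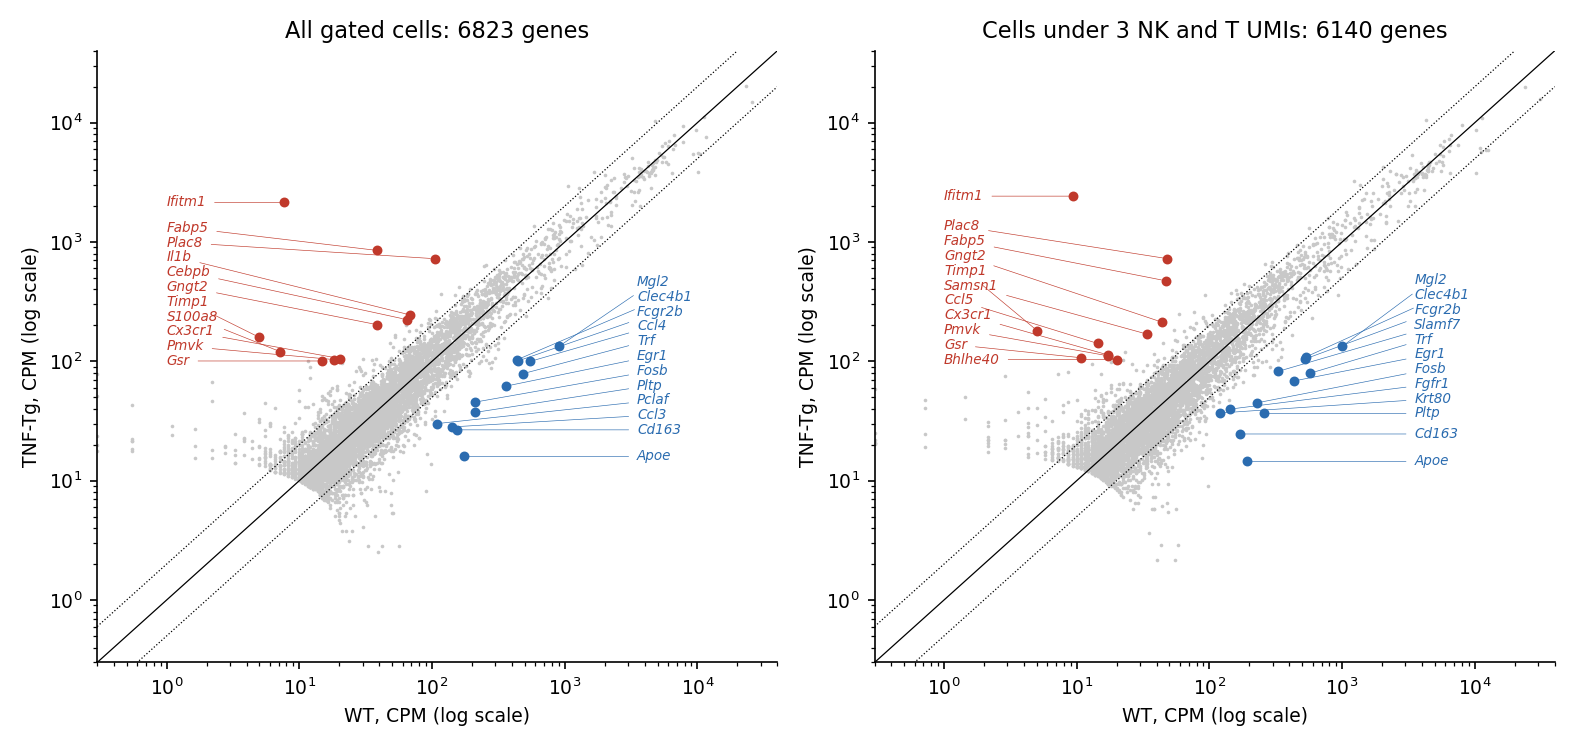
Summed expression of each gene in WT (x axis) and TNF-Tg (y axis) gated cells, in CPM on log scales, for all gated cells (left) and the NK/T-low cells (right); the solid line is equal expression and dotted lines mark 2-fold. Genes with the highest (red, 11) and lowest (blue, 12) ratios among those of at least 100 CPM are named, with *Ifitm1* farthest above and *Apoe* farthest below the line of equality.

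The largest ratio among genes of at least 100 CPM was that of *Ifitm1*, which encodes an interferon-induced transmembrane protein of the endosomal and plasma membranes. It was at 7.69 CPM in WT gated cells and 2144 CPM in TNF-Tg, a log2 ratio of 8.12 (7.37 to 8.99). Within the NK/T-low cells it was at 9.36 and 2420 CPM, a log2 ratio of 8.01 (7.24 to 8.92). It was widespread in TNF-Tg, with a UMI in 147 of 261 gated cells against 8 of 134 in WT. Thinned to 3000 UMIs per cell, 52.7% of TNF-Tg NK/T-low cells held a UMI (45.6 to 59.6) against 2.06% in WT (0.251 to 7.25), while 5.93% and 1.77% of stromal cells did. The tdT1 and tdT2 NK/T-low cells held 0 UMIs of *Ifitm1*, where the floor was 22.6 and 28.2 CPM. In other cells of the WT and TNF-Tg libraries *Ifitm1* was at 4.14 and 1048 CPM in cDC1, 7.25 and 156 CPM in C1q macrophages, 8.99 and 281 CPM in *Ear2* and *Retnla* cells, 189 and 320 CPM in *Ly6c2* monocytes and 11.6 and 39.3 CPM in stromal cells.

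*Ifitm1* lies in a cluster of related genes on chromosome 7 of GRCm38, at chr7:140967221-140969825. Its neighbors *Ifitm2* (chr7:140954837-140955987), *Ifitm3* (chr7:141009586-141010770) and *Ifitm6* (chr7:141015699-141017924) were detected in both genotypes. *Ifitm2* was at 1058 CPM in WT and 2932 in TNF-Tg, a log2 ratio of 1.47 (1.40 to 1.54). *Ifitm3* was at 1670 and 3828 CPM, 1.20 (1.14 to 1.25), and *Ifitm6* at 107 and 262 CPM, 1.29 (1.07 to 1.52). All of these paralogs were thus at least 2-fold higher in TNF-Tg, and reads that fall on stretches they share could be split between them. The list of interferon-stimulated genes did not include *Ifitm1*, *Ifitm2* or *Ifitm6*, so its counts leave them out. Of its 22 measured genes *Ifitm3* alone was at least 2-fold higher (4.55%, against 4.16% of all genes) and 0 were lower, with a median of 0.17. *Isg15* had a log2 ratio of 0.91. *Gbp7*, *Irf7* and *Ifitm3* were at least 2-fold higher among 21 in the NK/T-low cells (14.3%, against 5.23% of all genes).

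Of the list of 14 monocyte genes 11 were measured, and 3 were at least 2-fold higher in TNF-Tg (27.3%, against 4.16% of all genes), *Chil3*, *Plac8* and *Hp*. *Gpr141* was at least 2-fold lower (9.09%, against 5.35%), at 78.6 and 37.9 CPM, and the median was 0.16. *Ms4a4c*, the most abundant of the list in WT, was at 411 and 294 CPM, and *Ly6c2* at 118 and 132 CPM. Within the NK/T-low cells *Ly6c2* was at 18.0 and 98.1 CPM, 2.45 (1.85 to 3.1), against 67.8 and 160 CPM in tdT1 and tdT2, and the WT cells with 3 or more NK and T cell UMIs had 439 CPM. *Plac8* was at 104 CPM in WT and 724 in TNF-Tg, a log2 ratio of 2.79 (2.58 to 3.02), and at 48.2 and 725 CPM in the NK/T-low cells, 3.91 (3.56 to 4.28). It was at 196 and 479 CPM in tdT1 and tdT2, between the WT and TNF-Tg levels. The fractalkine receptor gene *Cx3cr1* was at 20.3 and 105 CPM, 2.37 (1.88 to 2.90), and after thinning in 3.09% of WT and 26.6% of TNF-Tg NK/T-low cells. *Csf1r* was at 35.2 and 102 CPM, 1.54 (1.15 to 1.95). The G-protein subunit *Gngt2* was at 38.5 and 203 CPM and the transcription factor *Cebpb* at 64.3 and 224 CPM. In tdT2, *Cx3cr1* (131 CPM) and *Cebpb* (619 CPM) were higher than in TNF-Tg NK/T-low cells (113 and 249 CPM), and *Csf1r* was at 113 and 178 CPM in tdT1 and tdT2 against 114 CPM in TNF-Tg, so none of the 3 genes separated TNF-Tg from the other libraries. Without the C1q limit *Cebpb* was −0.62 and *Csf1r* −1.93. The rise of the summed monocyte list, from 1046 to 1625 CPM, came from *Plac8*, without which the sum was 941 and 901 CPM. The part of monocytes in these ratios was not tested.

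*Timp1*, an inhibitor of matrix metalloproteinases, was at 4.95 CPM in WT and 160 in TNF-Tg, a log2 ratio of 5.01 (4.08 to 6.15). The gated cells of tdT1 and tdT2 held 0 UMIs of *Timp1*, with floors of 13.4 and 24.5 CPM, both above the WT value. *Timp1* was also higher in TNF-Tg stromal cells, at 58.0 and 555 CPM, and in C1q macrophages, at 6.08 and 78.2 CPM. *Fabp5*, a fatty acid-binding protein, was at 38.5 and 850 CPM, 4.47 (4.12 to 4.83), but 10 TNF-Tg cells held 89.4% of its UMIs. The 9 TNF-Tg cells with at least 20 UMIs of the mature dendritic cell list held 88.5% of them, and without such cells of either library *Fabp5* was at 21.8 and 102 CPM. It was at 46.8 and 473 CPM in the NK/T-low cells, 3.34 (2.98 to 3.72), where 10 TNF-Tg cells still held 83.6% of its UMIs, and after thinning in 7.22% and 22.2% of cells. Its log2 ratio was 1.26 in cells with a *Cd209a* UMI and under 3 NK and T cell UMIs. The glutathione reductase gene *Gsr* was at 14.8 and 101 CPM, 2.76 (2.19 to 3.39), and *Pmvk*, of the mevalonate pathway, at 18.1 and 103 CPM, 2.51 (1.99 to 3.08). *Il1b*, the gene of interleukin-1β, was at 68.1 and 245 CPM, 1.85 (1.57 to 2.13), while tdT1 and tdT2 NK/T-low cells had 354 and 18.8 CPM.

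*S100a8*, a calcium-binding protein of neutrophils, was at 7.14 CPM in WT and 121 in TNF-Tg gated cells, a log2 ratio of 4.08 (3.29 to 5.0). This ratio rested on few cells, since 10 TNF-Tg cells held 97.9% of the UMIs. It was −0.18 without the 1 predicted doublet and −0.16 (−1.43 to 1.20) in the NK/T-low cells, at 6.48 and 5.79 CPM. *Ccl5*, a chemokine of cytotoxic lymphocytes, was at 1317 and 1275 CPM in all gated cells, and at 14.4 and 141 CPM in the NK/T-low cells, where 10 TNF-Tg cells held 99.2% of its UMIs.

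*Mgl2* (CD301b), a galactose-binding lectin typical of dermal cDC2, was at 903 CPM in WT and 133 in TNF-Tg, a log2 ratio of −2.76 (−2.92 to −2.61). It had a UMI in 78 of 134 cells in WT and in 36 of 261 in TNF-Tg, and after thinning in 63.9% and 10.1% of the NK/T-low cells. The tdT1 and tdT2 NK/T-low cells had 535 and 1154 CPM, both above the TNF-Tg value of 134 CPM. Its neighbor *Clec10a* (CD301a) was at 749 and 341 CPM, −1.14 (−1.25 to −1.02), but was at 414 and 272 CPM in tdT1 and tdT2, on either side of the TNF-Tg value of 362 CPM. *Mgl2* was also lower in TNF-Tg C1q macrophages (733 and 259 CPM), *Ear2* and *Retnla* cells (769 and 23.4 CPM), *Ly6c2* monocytes (85.6 and 1.07 CPM) and stromal cells (21.5 and 4.39 CPM).

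Of the list of 15 macrophage genes 9 were measured, of which 4 were at least 2-fold lower in TNF-Tg (44.4%, against 5.35% of all genes), *Apoe*, *Cd163*, *Mrc1* and *Adgre1*. In the other direction 2 were at least 2-fold higher (22.2%, against 4.16%), *Fcgr1* and *Timd4*, the latter at 1.65 and 15.4 CPM, and *Cd68* was at 163 and 218 CPM. Of 8 measured in the NK/T-low cells 4 were lower (50%, against 5.2% of all genes) and 1 higher (12.5%, against 5.23%), *Fcgr1*. *Timd4*, at 2.16 and 14.5 CPM, fell below the minimum of 50 UMIs there. *Apoe* had the lowest ratio among genes of at least 100 CPM, at 174 CPM in WT and 16 in TNF-Tg, −3.44 (−3.90 to −3.01). The scavenger receptor *Cd163* was at 154 and 26.7 CPM, −2.53 (−2.90 to −2.17), and the phospholipid transfer protein *Pltp* at 211 and 37.3 CPM, −2.50 (−2.81 to −2.20). The transferrin gene *Trf* was at 489 and 79.0 CPM, −2.63 (−2.84 to −2.42). In C1q macrophages *Apoe* was at 23029 and 4464 CPM, and those cells were 1804 in WT and 456 in TNF-Tg, so that macrophage number and *Apoe* per macrophage both moved with the gated value. Their part in it was not tested. The inhibitory Fc receptor *Fcgr2b* was at 447 and 101 CPM, −2.15 (−2.34 to −1.96), and the activating receptor *Fcgr3* at 105 and 34.5 CPM, −1.61 (−1.96 to −1.26). *Fcgr1*, the high-affinity receptor, was at 8.79 and 25.4 CPM, 1.53 (0.74 to 2.40).

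The C-type lectin *Clec4b1* was at 438 CPM in WT and 103 in TNF-Tg, −2.09 (−2.28 to −1.90). *Slamf7* was at 278 and 88.4 CPM, −1.65 (−1.87 to −1.44), and *Klrb1b* at 191 and 75.3 CPM, −1.35 (−1.59 to −1.10). Both were also among the genes that set the NK/T-low cells apart from pooled low-*Dcn* cells in WT and TNF-Tg. In tdT1 *Klrb1b* was at 30.1 CPM in these cells, below cDC1 (40.5 CPM) and *Ear2* and *Retnla* cells (44.2 CPM). *Slamf7* was there at 264 CPM, above cDC1 (216 CPM) and *Ear2* and *Retnla* cells (82.4 CPM). The growth factor receptor gene *Fgfr1* (144 and 39.8 CPM in the NK/T-low cells) and the keratin gene *Krt80* (121 and 36.9 CPM) had log2 ratios of −1.85 (−2.20 to −1.51) and −1.71 (−2.08 to −1.35). Of 20 measured C-type lectins 6 were at least 2-fold lower (30%, against 5.35% of all genes), *Mgl2*, *Clec4b1*, *Cd209c*, *Klrb1b*, *Mrc1* and *Clec10a*, and 1 was higher (5%, against 4.16%), *Clec4n* (Dectin-2), at 6.59 and 40.5 CPM. The same 6 and 1 were counted among 18 in the NK/T-low cells (33.3% and 5.56%, against 5.2% and 5.23% of all genes).

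**Figure D4:**
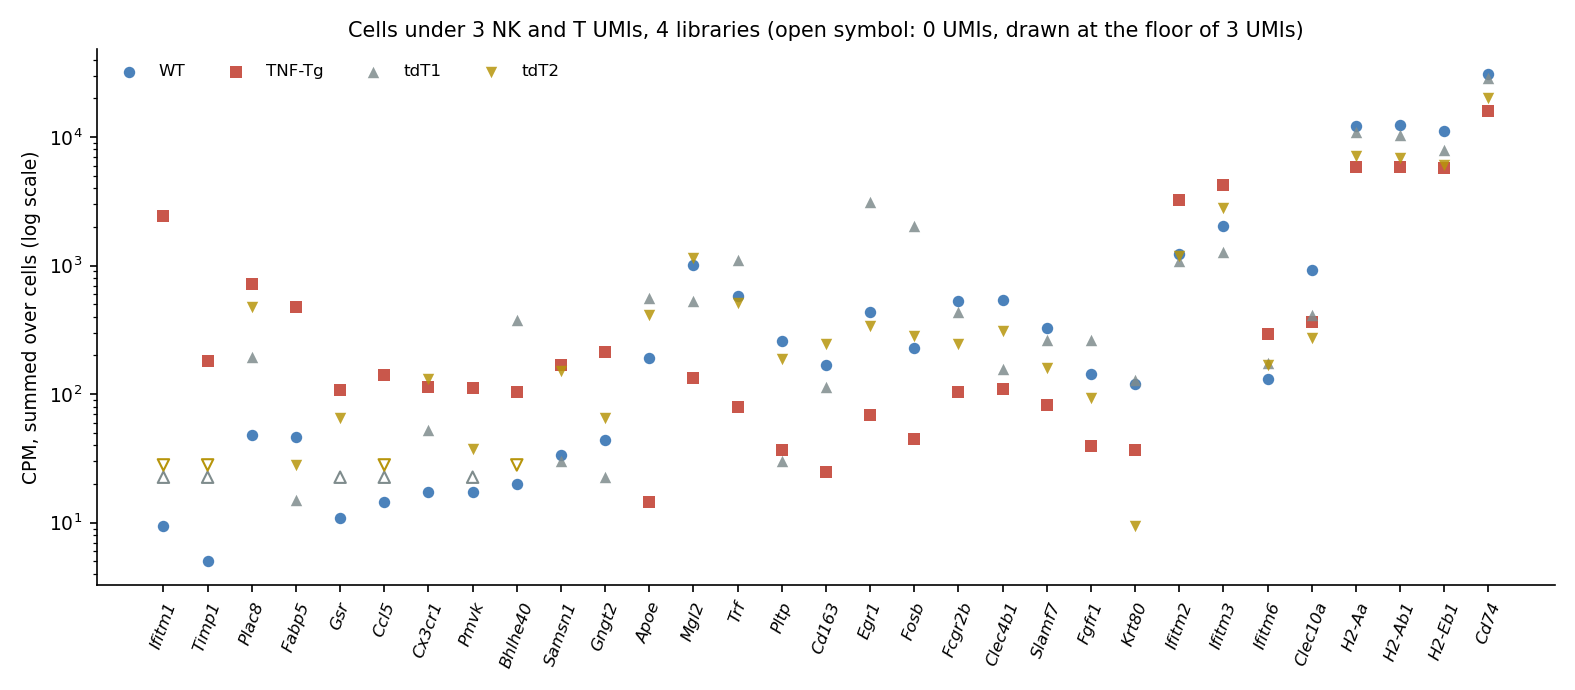
Summed CPM (log scale) of the named genes in the NK/T-low cells of WT (100 cells), TNF-Tg (208 cells), tdT1 (12 cells) and tdT2 (12 cells); open symbols are genes with 0 UMIs, drawn at the floor of 3 UMIs. For *Ifitm1*, *Timp1* and *Fabp5* the TNF-Tg level lies above all other libraries, and for *Apoe*, *Mgl2* and *Trf* below them.

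*Ccl4* and *Ccl3*, chemokines of activated lymphocytes and macrophages, were at 546 and 99.7 CPM and at 142 and 28.2 CPM in all gated cells, log2 ratios of −2.45 (−2.64 to −2.27) and −2.33 (−2.70 to −1.98). In WT 10 cells held 99.7% of the *Ccl4* UMIs. In the NK/T-low cells *Ccl4* was at 33.8 and 57.6 CPM, a ratio of 0.77 (0.29 to 1.27) in the other direction. It was there in only 4 of 100 WT and 31 of 208 TNF-Tg cells, and 10 TNF-Tg cells held 83.0% of the UMIs. *Ccl3* was at 28.8 and 16.7 CPM, −0.79 (−1.43 to −0.14). Of 11 measured chemokines 2 were at least 2-fold higher (18.2%, against 4.16% of all genes) and 4 lower (36.4%, against 5.35%) in all gated cells. In the NK/T-low cells 2 were higher and 2 lower (18.2% each, against 5.23% and 5.2% of all genes). *Ccl8* was lower in both sets, at 90.1 and 8.15 CPM and at 97.2 and 9.05 CPM. *Ccr2*, the monocyte and cDC2 chemokine receptor, was at 761 and 619 CPM, −0.30 (−0.40 to −0.20).

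MHC class II genes were among the most abundant transcripts of these cells, and the classical chains were lower in TNF-Tg. *H2-Aa* was at 10130 CPM in WT and 5528 in TNF-Tg, −0.87 (−0.90 to −0.84), *H2-Ab1* at 10386 and 5477 CPM, −0.92 (−0.95 to −0.89), and *H2-Eb1* at 9240 and 5410 CPM, −0.77 (−0.80 to −0.74). *Cd74* was at 25798 and 14885 CPM, −0.79 (−0.81 to −0.77). In the NK/T-low cells *H2-Aa* was at 12216 and 5886 CPM, −1.05 (−1.08 to −1.02), with 11000 CPM in tdT1 and 7180 CPM in tdT2, so the TNF-Tg level was the lowest of the 4 and tdT2 came next. *Ciita*, the class II transactivator, was at 181 and 126 CPM, −0.52 (−0.73 to −0.31).

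Genes of class II peptide loading did not move as a block. *H2-Oa* was at 124 and 61.1 CPM, −1.02 (−1.31 to −0.74), and its direction depended on the gate, being 0.23 without the C1q limit and 0.18 without the *Ear2* limit. *H2-Ob* was at 74.2 and 31.7 CPM, −1.23 (−1.61 to −0.85), and *H2-DMb2* at 124 and 63.7 CPM, −0.96 (−1.24 to −0.68). *H2-DMa* was at 904 and 736 CPM, −0.30 (−0.39 to −0.20), and *H2-DMb1* at 875 and 949 CPM, 0.12 (0.03 to 0.21). The lysosomal thiol reductase gene *Ifi30* was higher, at 1306 and 2379 CPM, 0.87 (0.80 to 0.93), and so were the protease genes *Napsa* (0.58) and *Ctss* (0.22). Over the class II list 0 of 17 genes were at least 2-fold higher and 2 lower (11.8%, against 5.35% of all genes), with a median of −0.52. Among the NK/T-low cells 5 were lower (29.4%, against 5.2% of all genes), *H2-Ob*, *H2-DMb2*, *H2-Oa*, *H2-Ab1* and *H2-Aa*, with a median of −0.62. MHC class I presentation had 0 of 17 genes past 2-fold in either direction and a median of 0.04.

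Other cells of the same libraries had lower class II in TNF-Tg as well. *H2-Aa* was at 4434 and 1341 CPM in C1q macrophages, 3800 and 503 CPM in *Ly6c2* monocytes, 8108 and 6235 CPM in cDC1, 7128 and 869 CPM in the *Ear2* and *Retnla* cells and 168 and 39.5 CPM in stromal cells, which do not make class II in quantity. Class II levels of stromal cells therefore moved with the genotype too, and the part of free RNA in the gated values was not tested.

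Promoters of class II genes carry the Y box, a motif read by NF-Y that works together with the RFX and CIITA complex. The sequences from 250 bases before the start of 3 class II genes, 1 α chain, 1 β chain and *H2-Oa*, are shown so that this element can be seen. They are from RefSeq on GRCm38.p6, read 5′ to 3′ on the strand of the gene, for *H2-Aa* at chr17:34287824-34288073 (− strand), *H2-Eb1* at chr17:34305617-34305866 (+ strand) and *H2-Oa* at chr17:34092129-34092378 (+ strand). Capitals mark the motif CTGATTGG.
H2-Aa: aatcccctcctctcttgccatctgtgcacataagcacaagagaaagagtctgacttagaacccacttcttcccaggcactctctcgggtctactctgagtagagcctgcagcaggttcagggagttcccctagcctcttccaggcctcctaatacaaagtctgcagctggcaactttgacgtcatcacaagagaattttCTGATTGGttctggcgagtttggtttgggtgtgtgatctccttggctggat
H2-Eb1: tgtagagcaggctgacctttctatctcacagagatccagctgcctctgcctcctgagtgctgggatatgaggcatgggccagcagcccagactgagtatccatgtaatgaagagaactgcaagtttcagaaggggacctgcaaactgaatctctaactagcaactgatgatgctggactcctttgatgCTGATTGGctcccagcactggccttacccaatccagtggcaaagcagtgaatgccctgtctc
H2-Oa: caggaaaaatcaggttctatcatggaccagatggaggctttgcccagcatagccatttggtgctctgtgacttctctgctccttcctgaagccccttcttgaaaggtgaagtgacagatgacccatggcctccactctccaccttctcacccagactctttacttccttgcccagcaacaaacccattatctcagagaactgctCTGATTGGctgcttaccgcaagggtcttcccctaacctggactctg
The motif began 51, 62 and 46 bases before the RefSeq start in *H2-Aa*, *H2-Eb1* and *H2-Oa*. GENCODE gives the same start for *H2-Aa* and *H2-Eb1* but puts that of *H2-Oa* at base 34092340, inside the window shown, and the motif then begins 7 bases before it. On both strands it was found in 4 of 14 class II list genes with a window, the fourth being *H2-Eb2*, and in 1258 of 32851 promoter windows of the same length (3.83%). A match describes these letters and no binding was measured.

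Of 18 measured genes of co-stimulation and maturation 9 were at least 2-fold higher in TNF-Tg (50%, against 4.16% of all genes) and 0 lower, most at low levels, with a median of 1.11 against −0.00 over all genes. For the NK/T-low cells 8 of 16 were higher (50%, against 5.23% of all genes), with a median of 1.00. *Ccr7* and *Fscn1* were among these 8, and WT NK/T-low cells held 1 and 0 UMIs of them. In gated cells without those rich in mature or *Siglech* markers the median of the list was 0.85. *Cd40*, the receptor for T cell help, was at 9.34 CPM in WT and 30.4 in TNF-Tg, 1.70 (0.95 to 2.54), and *Samsn1*, a signaling adaptor, at 63.2 and 201 CPM, 1.67 (1.38 to 1.97). *Cd86* was at 14.8 and 29.2 CPM, 0.97 (0.34 to 1.65), and *Cd83* at 34.1 and 23.5 CPM, −0.53 (−1.04 to −0.03). *Fscn1*, the actin bundler of mature dendritic cells, was at 29.1 and 82.8 CPM, and *Ccr7*, the receptor that guides them to lymph nodes, at 29.1 and 47.4 CPM, 0.70 (0.24 to 1.18). These genes lay in few cells. The 2 WT and 9 TNF-Tg cells with at least 20 UMIs of the mature list held 53 of 53 and 263 of 264 *Fscn1* UMIs, and 44 of 53 and 141 of 151 *Ccr7* UMIs. They also held 30.4% and 43.8% of the *Samsn1* UMIs, and 11.8% and 12.4% of those of *Cd40*. In the NK/T-low cells *Ccr7* was at 0.720 and 40.5 CPM, the WT value being below the floor of 2.16 CPM. That set leaves out the 1 WT cell that held 43 of the 53 *Ccr7* UMIs, so the ratio there turns on 1 cell.

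**Figure D5:**
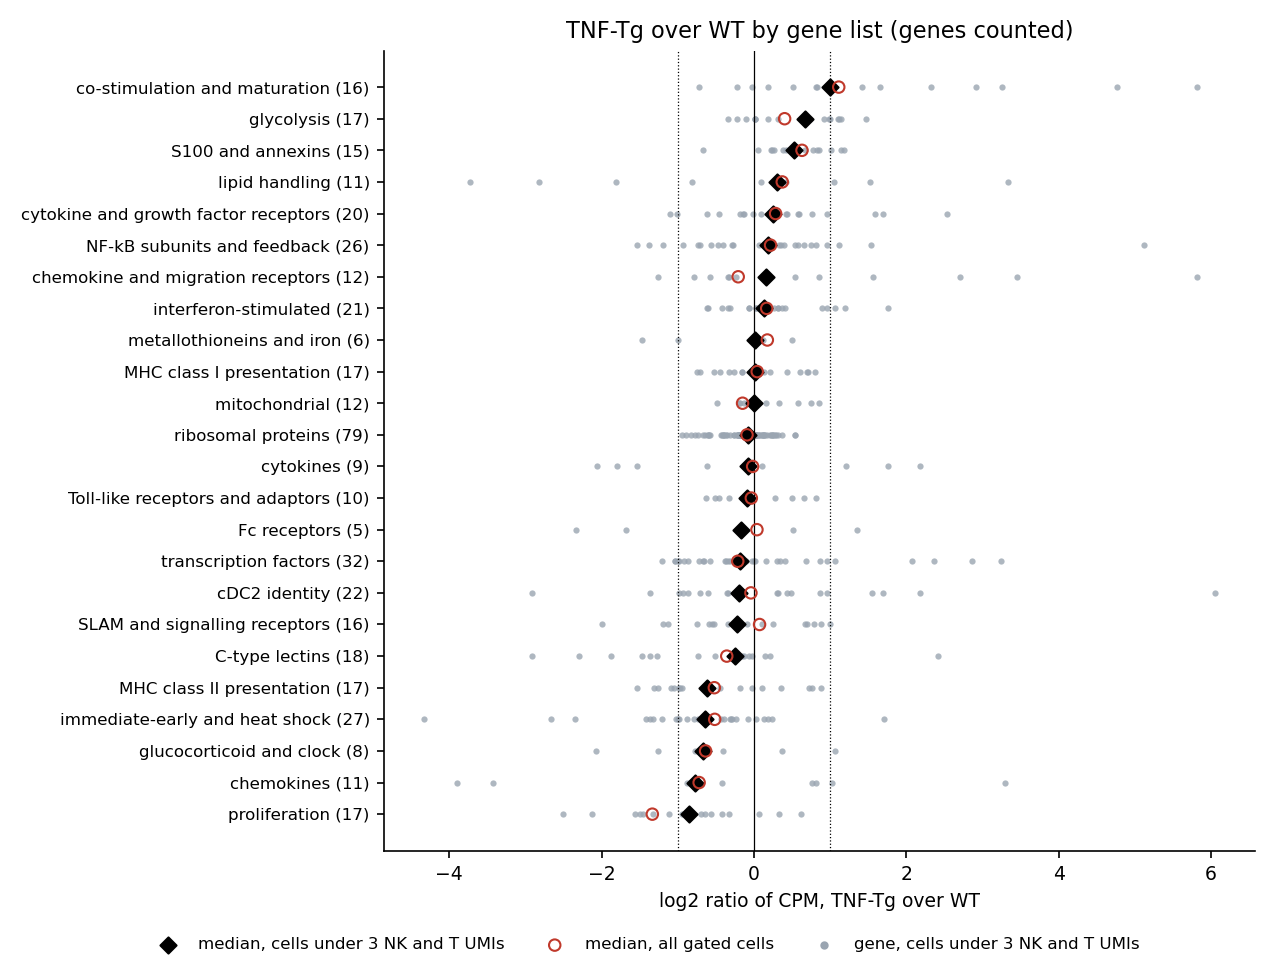
Log2 ratio of CPM, TNF-Tg over WT, for each gene list; gray points are genes in the NK/T-low cells (number counted in brackets), black diamonds their median, red circles the median in all gated cells, and dotted lines mark 2-fold; genes at 0 in WT are drawn at the floor of 3 UMIs. Among the lists drawn, which leave out the cell type markers, co-stimulation and maturation has the highest median and proliferation the lowest.

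Of 26 measured genes of NF-kB subunits and feedback 3 were at least 2-fold higher, *Tnfaip2*, *Tnip1* and *Icam1* (11.5%, against 4.16% of all genes), and 2 lower, *Nfkbiz* and *Tnf* (7.69%, against 5.35%), with a median of 0.22. *Tnfaip2* was at 2.20 and 46.7 CPM, 4.41 (3.02 to 6.30), whereas the inhibitor *Nfkbia* was at 473 and 453 CPM, −0.06 (−0.19 to 0.06), and mouse *Tnf* at 27.5 and 11 CPM, −1.32 (−1.99 to −0.67). The TNF receptor gene *Tnfrsf1b* was at 15.4 and 19.8 CPM, 0.36 (−0.30 to 1.06). Of 9 measured cytokines 2 were higher (22.2%, against 4.16% of all genes), *Il1b* and *Tnfsf13*, and 3 lower (33.3%, against 5.35%). Of 22 cytokine receptors 3 were higher (13.6%, against 4.16%), *Il1r2*, *Csf1r* and *Il21r*, and 2 lower (9.09%, against 5.35%). Toll-like receptors and adaptors had 0 of 11 genes past 2-fold in either direction.

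Among 33 transcription factors 5 were at least 2-fold higher, *Id3*, *Cebpb*, *Bhlhe40*, *Irf8* and *Nfil3* (15.2%, against 4.16% of all genes), and 2 lower, *Nr4a2* and *Klf6* (6.06%, against 5.35%). *Id3*, an inhibitor of E proteins, was at 12.1 CPM in WT and 90.0 in TNF-Tg, 2.90 (2.27 to 3.59). *Irf8*, the factor of cDC1 and monocytes, was at 37.9 and 105 CPM, 1.47 (1.09 to 1.86), and at 8.64 and 81.8 CPM in the NK/T-low cells, with 15.1 CPM in tdT1 and 93.9 CPM in tdT2. In that set 7 of 100 WT and 60 of 208 TNF-Tg cells held a UMI of *Irf8*, and 10 TNF-Tg cells held 65.5% of its UMIs. *Bhlhe40* was at 30.2 and 104 CPM, 1.78 (1.36 to 2.22), although tdT1 NK/T-low cells had 377 CPM. *Irf4*, the factor of cDC2, was at 46.2 and 27.6 CPM, −0.74 (−1.19 to −0.29), and *Zbtb46* at 15.9 and 19.8 CPM, 0.31 (−0.35 to 1.00). The cDC2 list as a whole had 3 of 22 genes higher (13.6%, against 4.16% of all genes), *Ffar2*, *Il1r2* and *Cd24a*. It had 2 lower (9.09%, against 5.35%), *Mgl2* and *Clec10a*, with a median of −0.04. *Ffar2*, a receptor for short-chain fatty acids, had 1 UMI in WT gated cells (0.550 CPM) and was at 43.3 CPM in TNF-Tg, a log2 ratio of 6.30 (3.80 to 11.61).

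Of 27 measured genes of the immediate-early and heat shock list 7 were at least 2-fold lower in TNF-Tg (25.9%, against 5.35% of all genes) and 0 higher, with a median of −0.52. In the NK/T-low cells 8 were lower (29.6%, against 5.2% of all genes) and 1 higher (3.7%, against 5.23%), the phosphatase gene *Dusp2*, at 10.8 and 35.1 CPM. *Egr1* was at 364 CPM in WT and 62.1 in TNF-Tg, −2.55 (−2.79 to −2.32), and *Fosb* at 210 and 45.5 CPM, −2.21 (−2.49 to −1.93). *Klf6*, *Btg2* and *Ppp1r15a* had log2 ratios of −1.12, −1.10 and −1.13, and *Fos* and *Jun*, which did not reach 2-fold, of −0.90 and −0.46. These genes are known to be induced by tissue dissociation, and their levels differed widely between the libraries without the transgene, with *Egr1* at 3104 CPM in tdT1 and 338 CPM in tdT2 against 432 CPM in WT NK/T-low cells. The part of cell handling was not tested.

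Of 19 measured proliferation genes 11 were at least 2-fold lower in TNF-Tg (57.9%, against 5.35% of all genes) and 0 higher, with a median of −1.33. *Mki67*, a marker of cycling cells, was at 97.8 and 13.8 CPM, −2.83 (−3.34 to −2.34), *Pclaf*, a replication factor, at 110 and 30.1 CPM, −1.87 (−2.23 to −1.51), and *Stmn1* at 256 and 102 CPM, −1.33 (−1.54 to −1.13). Few cells carried these transcripts. In WT and TNF-Tg, 10 cells of each library held 86.0% and 77.3% of the *Mki67* UMIs, 94.5% and 97.9% of those of *Pclaf* and 82.2% and 82.4% of those of *Stmn1*. The NK/T-low cells had 7 of 17 lower (41.2%, against 5.2% of all genes) and a median of −0.85. *H2afz*, the most abundant gene of the list, was at 2063 and 2114 CPM, 0.04 (−0.02 to 0.09).

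Of 18 measured glycolysis genes 3 were at least 2-fold higher (16.7%, against 4.16% of all genes), *Slc16a3*, *Pgam1* and *Eno1*, and 0 lower, with a median of 0.40. *Eno1* was at 173 and 355 CPM, 1.04 (0.86 to 1.22), and *Pgam1* at 94.0 and 194 CPM, 1.05 (0.80 to 1.30). Of 13 lipid-handling genes 3 were higher (23.1%, against 4.16%), *Fabp4* and *Fabp5* among them, and 4 lower (30.8%, against 5.35%), *Apoe*, *Pltp* and the cholesterol exporters *Abca1* and *Abcg1*. Among 17 S100 and annexin genes 3 were higher (17.6%, against 4.16%), *S100a8*, *S100a9* and *S100a11*, and 0 lower, with a median of 0.63. *S100a9* was at 11.5 and 99.7 CPM, but 10 TNF-Tg cells held 92.5% of its UMIs, and in the NK/T-low cells its log2 ratio was −0.14 and that of *S100a8*, as given above, −0.16. *S100a11* was at 1271 and 2815 CPM, 1.15 (1.08 to 1.21), and was also higher in the NK/T-low cells at 1367 and 3022 CPM.

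Chemokine and migration receptors had 3 of 15 genes at least 2-fold higher (20%, against 4.16% of all genes), *Ccr9*, *Cx3cr1* and *Ccr1*, and 1 lower, *Cxcr4* (6.67%, against 5.35%). The Fc receptor list had 1 of 5 higher (20%, against 4.16%) and 2 lower (40%, against 5.35%). The SLAM and signaling receptor list had 1 of 17 higher, *Sirpb1c*, and 1 lower, *Slamf7*, each 5.88% and near the share over all genes. In the NK/T-low cells 1 of 16 was higher (6.25%, against 5.23% of all genes). In that set 3 were lower (18.8%, against 5.2%), *Slamf7*, *Cd200r1* and *Slamf9*. Glucocorticoid and clock genes had 1 of 9 higher (11.1%, against 4.16%) and 3 lower (33.3%, against 5.35%), with a median of −0.63. Metallothionein and iron genes had 0 of 6 past 2-fold, and mitochondrial transcripts 0 of 12. In the NK/T-low cells 1 of the 6, *Mt2*, was at least 2-fold lower (16.7%, against 5.2% of all genes). Of 79 ribosomal protein genes 0 were higher and 2 lower (2.53%, against 5.35% of all genes), *Rps15* at −1.06 and *Rpl23a* at −1.01, with a median of −0.09. In the NK/T-low cells 0 of 79 were past 2-fold.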

How the data were processed

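The deposited 10x matrices hold UMI counts for every gene and barcode, produced by the authors in Cell Ranger (3.1.0 for tdT1 and 6.0.1 for the other libraries, per the file headers) on mm10, and their processing notes name Seurat 4.0.3. Counts are whole and not normalized. All barcodes were kept.

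Gated counts were summed per library, scaled to CPM (1000000) and compared as ratios for genes with at least 50 UMIs over both sums, without the 12 genes of the rule. A ratio of at least 2 was counted. Gene sums carry exact conditional binomial intervals, and shares Clopper-Pearson intervals. The floor was 3 UMIs. The members, lists and named genes were chosen with earlier results of these data known. Named genes are the 12 highest and 12 lowest ratios among genes at least 2-fold apart with at least 100 CPM in the higher library, list members that pass the same limits, the 15 most distinct genes against other low-*Dcn* cells, and members of the cDC2 and class II lists. 1 gene of the 12 highest and a few list members are not reported here. Others were named after their values were seen, among them *Ifitm2*, *Ifitm6*, *Tnfaip2*, *Ffar2* and *Id3*.

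The alternatives tried were other gate limits, doublets (Scrublet in scanpy 1.11.5), cells with NK and T cell or proliferation UMIs left out, other UMI minimums, thinning to 3000 UMIs, 1.5-fold, and scaling by edgeR 4.0.16 or DESeq2 1.42.0 factors. No count model was fitted. WT and TNF-Tg have 1 library each, and tdT1 and tdT2 were sorted differently, for tdTomato. Python 3.11.15, numpy 2.4.6, scipy 1.17.1, pandas 2.3.3 and R 4.3.3 were used. The scripts were tested on simulated data. Positions are from GENCODE and promoters from RefSeq.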

Additional observations from a re-analysis of the deposited data

Results flagged for a closer look

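A few genes moved one way in the gated cells and the other way in another cell set of the same libraries. None of these differences was tested, since each genotype has 1 library. *S100a8* had a log2 ratio of TNF-Tg over WT of 4.08 in all gated cells, against −1.29 in stromal cells (176 CPM in WT and 71.9 in TNF-Tg) and −3.78 in *Ly6c2* monocytes (7486 and 547 CPM), and 10 cells held 97.9% of its UMIs in TNF-Tg gated cells. *Cd163* had −2.53 in gated cells and 1.03 (0.01 to 2.27) in *Ly6c2* monocytes, at 7.69 and 15.7 CPM. *Ccl4* had −2.45 in gated cells, 2.17 in C1q macrophages (8.33 and 37.4 CPM) and 1.09 in *Ly6c2* monocytes (126 and 268 CPM), and it was also higher in TNF-Tg in the NK/T-low gated cells, at 0.77, where 4 WT and 31 TNF-Tg cells held a UMI.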

How the results depend on the processing

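The log2 ratio of the gated share was 1.66 and stayed between 1.47 and 1.75 except without the C1q limit (0.35) and without the *Ear2* limit (0.67), both added after seeing the data. Counts of higher and lower genes, 284 and 365, were 478 and 721 with a minimum of 20 UMIs, 93 and 78 with 200, 859 and 1349 with 1, 143 and 91 after thinning and 954 and 1062 at 1.5-fold. Without the C1q limit they were 501 and 1135, and 865 genes were lower without the *Ear2* limit. Leaving out cells with 5 proliferation UMIs left 3 and 6 cells, with 13 and 8 genes, *H2afz* being the most abundant gene of that list.

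The 85 genes that set the gated cells apart numbered 45 with 2 of the 3 gate genes, 38 and 47 without cells of 3 and 20 NK and T cell UMIs, 35 in *Cd209a* cells without those UMIs, 44 without the C1q limit, 31 and 213 with minimums of 200 and 1 UMIs, and 1 without cells of 5 proliferation UMIs. Scaling by edgeR or DESeq2 factors gave 283 and 367, and 287 and 361 genes, and leaving ribosomal and mitochondrial genes out of the totals 254 and 412, with a shift of −0.04 in every log2 ratio.

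Of 951 ratios of 44 named genes under the alternatives, 26 changed sign, 161 moved beyond their counting interval in the same direction and 764 did not, and 14 of 514 list medians moved. *S100a8* was −0.25 with 2 of the 3 gate genes, −0.18 without predicted doublets, −0.16 and −0.10 without cells of 3 and 20 NK and T cell UMIs and −0.38 in *Cd209a* cells without those UMIs, and *Ccl4* was 0.91, 0.77, 0.83 and 0.82 under these settings, doublets excepted. Without the C1q limit *Cebpb* was −0.62, *H2-Oa* 0.23 and *Csf1r* −1.93, and without the *Ear2* limit *Cebpb* was −0.066 and *H2-Oa* 0.18. In the 3 and 6 cells left with fewer than 5 proliferation UMIs *Plac8* was −1.75, *Cx3cr1* −0.96, *Mgl2* 0.45, *Ccl4* 2.75, *Ccl3* 1.19, *Fosb* 1.45, *Clec4b1* 0.038, *Samsn1* −0.32, *Klf6* 0.77, *Bhlhe40* −0.55, *Btg2* 0.038 and *S100a11* −1.45. The cause of the sign changes under the C1q and *Ear2* limits was not tested. No paired analysis was possible because each genotype has 1 library and no test was made. Depth limits the tdT1 and tdT2 values, whose floors in NK/T-low cells were 22.6 and 28.2 CPM.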
